A study of Mus musculus with 8 samples.

Results

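The 7 genes described here are 4 keratins of simple epithelia (Krt7, Krt8, Krt18 and Krt19), the epithelial surface glycoprotein gene Epcam, the transcription factor gene Sox9 and the osteopontin gene Spp1. They are 7 of the 52636 genes in a table of read counts from mouse liver endothelial cells kept in culture. They were picked by symbol because several of them were higher in dKO cells, so the dKO to WT differences of the 7 are given here as a description with no test. The response of the same genes to cytokines was not part of that choice and was tested.

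The table holds 8 libraries, 2 in each of 4 groups: dKO with IL1B and TNFA, dKO without them, WT with them and WT without them. The labels do not expand dKO; the series design names Erg and Fli1, both ETS family transcription factors of endothelial cells, as the genes whose deletion was induced. The design places 4-OHT, the active tamoxifen metabolite, in the culture medium for 48 hours, with harvest after 7 more days, whereas the sample labels speak of treating mice. The 48 hours of 4-OHT and the 7 days are listed for the WT libraries as for the dKO libraries. The sources do not name the Cre driver or say whether WT cells carried floxed alleles. IL1B and TNFA, 2 inflammatory cytokines, were given on day 7 for 16 hours, and live cells negative for CD45 and positive for CD31 and VE-cadherin were sorted before RNA was taken. The labels do not state whether the 2 libraries of a group had separate animals or cultures as their source.

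Library totals ran from 23009062 to 26944030 counts. Levels are in CPM, the count of a gene scaled to the size of its library. Erg, one of the targeted genes, measured 34.7 and 90.2 CPM in dKO cells with cytokines and 40.1 and 91.3 CPM in dKO cells without, against 208 and 201 CPM in WT cells with cytokines and 196 and 186 CPM in WT cells without. Fli1 measured 12.4 and 35.2 CPM in dKO cells with cytokines and 21.9 and 62.5 CPM in dKO cells without, against 91.5 and 96.4 CPM in WT cells with cytokines and 161 and 177 CPM in WT cells without. Both were lower in every dKO library than in every WT library of the same treatment, and in both treatments the second dKO library kept more of each than the first. The second dKO libraries stood apart in other ways: the endothelial receptor gene Kdr had 657 counts in the second and 28 in the first dKO library without cytokines, and both the X-linked Xist (5380 counts) and the Y-linked Ddx3y (2178 counts) were present in it, against 19 and 3134 counts in the first. In dKO cells with cytokines Xist had 3864 counts in the second and 29 in the first library, and Ddx3y had 2659 and 3468. In WT cells the replicate number went with sex, whereas in dKO cells Ddx3y was present in both replicates. With cytokines the second WT library had 11570 counts of Xist and 1 of Ddx3y, against 21 and 2500 in the first, and without cytokines the second had 18767 and 1, against 13 and 3206 in the first. The 2 WT libraries of a treatment therefore came from animals of different sex, so their spread is not purely technical. The 2 dKO libraries of a treatment also differed in Xist, so their spread is not purely technical either. Whether each dKO library came from a single animal or several is not known. The dKO to WT differences and the cytokine responses of the main genes are also given without the second dKO libraries, as are counts over gene lists. That fit called more genes over all in both cytokine responses. Its list counts therefore do not match the shares of all genes given for the fit of all 8 libraries.

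Keratins are intermediate filament proteins that assemble as pairs of a type I and a type II chain; K18 and K19 are type I and K7 and K8 are type II. K8 with K18 is the pair of simple epithelia such as hepatocytes, and bile duct cells add K7 and K19. SOX9 is a transcription factor of bile duct cells and of cartilage, EpCAM is an adhesion protein of many epithelia including bile ducts, and osteopontin is a secreted phosphoprotein of bone, bile duct epithelium and activated macrophages that binds integrins and CD44. Endothelial cells are not usually counted among cells that express these genes as a set, although cultured endothelial cells can contain some keratin.

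The 250 bases before the annotated start sites of Krt18, its usual partner Krt8, and Spp1 are shown because ETS factors, the family of Erg and Fli1, bind sites that contain GGAA, and because Spp1 had the highest level of the 7 in dKO cells, Krt18 the highest in WT cells and Krt8 the lowest. RefSeq promoters of GRCm38.p6 matched 5 of the 7 genes; Spp1 has 2 there, and the upstream one is shown. Each is printed 5′ to 3′ on the strand of the gene, and capitals mark GGAA or its reverse complement TTCC.
Krt18 (chr15:102027966-102028215, + strand): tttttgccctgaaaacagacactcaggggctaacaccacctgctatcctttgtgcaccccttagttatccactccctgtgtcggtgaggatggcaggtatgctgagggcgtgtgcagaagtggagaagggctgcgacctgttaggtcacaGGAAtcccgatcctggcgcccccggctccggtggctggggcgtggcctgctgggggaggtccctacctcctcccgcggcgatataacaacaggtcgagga
Krt8 (chr15:102004343-102004592, - strand): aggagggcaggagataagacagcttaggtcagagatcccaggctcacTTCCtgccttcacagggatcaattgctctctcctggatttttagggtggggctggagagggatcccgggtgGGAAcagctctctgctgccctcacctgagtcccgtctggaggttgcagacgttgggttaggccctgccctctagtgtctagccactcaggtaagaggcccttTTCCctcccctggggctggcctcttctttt
Spp1 (chr5:104434861-104435110, + strand): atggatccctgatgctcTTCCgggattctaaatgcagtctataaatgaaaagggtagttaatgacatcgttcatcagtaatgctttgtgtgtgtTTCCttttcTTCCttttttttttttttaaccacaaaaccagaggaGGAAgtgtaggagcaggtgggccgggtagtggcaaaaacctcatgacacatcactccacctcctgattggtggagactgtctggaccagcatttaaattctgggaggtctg
GGAA, searched on both strands, occurred 1 time in the Krt18 window, 3 times in the Krt8 window and 4 times in the Spp1 window, and 93.4% of 32851 promoters of the same length hold it. The longer AGGAAG, which contains GGAA, occurred 2 times in the Spp1 window, 1 time in the Krt8 window and 0 times in the Krt18 window, and 29.5% of promoters hold it. The second Spp1 promoter, not printed, had 2 matches of GGAA and 1 of AGGAAG. For the factors that IL1B and TNFA act through, the AP-1 motif TGANTCA was found in none of these 3 windows, against 6.75% of all promoters. A loose NF-kB consensus was found 3 times in the Krt18 window, 4 times in the Krt8 window and 0 times in the Spp1 window, against 45.8% of promoters with a match. For Krt8 and Krt18 the RefSeq start lies inside the gene coordinates given below, so part of each window does too. A match describes the letters in the window only.

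Of the 7 genes, 4 were present at measurable levels and 3 were at or near 0. Krt8, the type II partner of K18, had 1 count in all 8 libraries together, in the first WT library with cytokines. Krt7 (ENSMUSG00000023039, chr15:101411043-101430313, + strand) had 0 and 0 counts in dKO cells with cytokines, 2 and 1 in dKO cells without, 4 and 1 in WT cells with cytokines, and 8 and 1 in WT cells without. Epcam (ENSMUSG00000045394, chr17:87635979-87651129, + strand) had 3 and 1 counts in dKO cells with cytokines, 5 and 2 in dKO cells without, 3 and 2 in WT cells with cytokines, and 5 and 5 in WT cells without. These 3 genes did not pass the filter on low counts and have no test. A group with 0 counts still allows up to 3 counts, which is 0.0646 CPM in dKO cells and 0.0529 CPM in WT cells, both without cytokines; such limits cover counting error only. Reads with identical copies can be lost in counting: 29.7% of the 50-base stretches of the Krt8 transcript also occur in the pseudogenes Krt8-ps and Gm36026, which leaves 70.3% that do not, and Krt8-ps itself had 0 counts in every library. The label of the set as epithelial markers therefore holds only in part in these cells.

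Per length of exon, Spp1 was the most abundant of the 7 in dKO cells and Krt18 in WT cells. Spp1 averaged 114 ± 47.7 RPKM (CPM divided by exon length in kilobases) in dKO cells with cytokines, 29.9 ± 20.4 in dKO cells without, 0.533 ± 0.0793 in WT cells with cytokines and 0.581 ± 0.446 in WT cells without (SD, n = 2 each). Krt18 averaged 1.62 ± 1.18 RPKM in dKO cells with cytokines, 15 ± 5.59 in dKO cells without, 1.58 ± 0.109 in WT cells with cytokines and 9 ± 1.07 in WT cells without (SD, n = 2 each). In WT cells without cytokines Krt18 was thus the only one of the 7 genes above 1 RPKM. Sox9 averaged 3.41 ± 0.596 RPKM in dKO cells with cytokines, 2.29 ± 0.598 in dKO cells without, 0.246 ± 0.0154 in WT cells with cytokines and 0.0769 ± 0.00495 in WT cells without (SD, n = 2 each). Krt19 averaged 2.07 ± 1.65 RPKM in dKO cells with cytokines, 1.8 ± 0.745 in dKO cells without, 0.439 ± 0.217 in WT cells with cytokines and 0.277 ± 0.251 in WT cells without (SD, n = 2 each). The Sox9 and Krt19 levels in dKO cells lay within their spread of each other in both treatments.

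**Figure D1:**
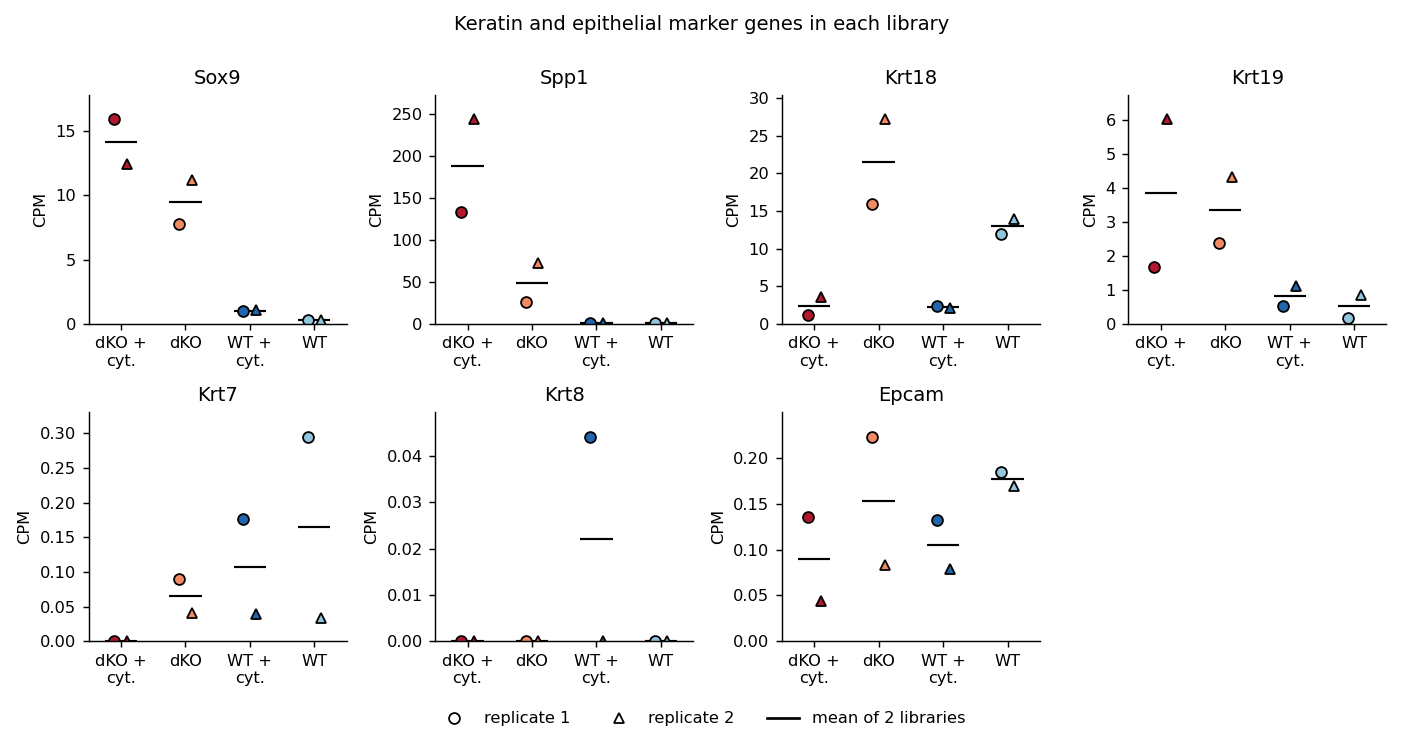
Level in CPM (y axis, from 0) of each of the 7 genes in the 4 groups (x axis); circles are replicate 1, triangles replicate 2, and the bar is the mean of the 2 libraries. Sox9 and Spp1 lie near 0 in all WT libraries and above them in all dKO libraries, Krt18 is low in all 4 libraries with cytokines, and Krt7, Krt8 and Epcam stay below 0.3 CPM.

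Krt18 (ENSMUSG00000023043, chr15:102028180-102032027, + strand, GRCm38) was the one keratin of the set with an appreciable level in WT cells. It measured 1.14 and 3.53 CPM in dKO cells with cytokines, 15.9 and 27.2 CPM in dKO cells without, 2.38 and 2.16 CPM in WT cells with cytokines, and 11.9 and 14 CPM in WT cells without. All 4 libraries with cytokines were lower than all 4 without, and dKO and WT libraries overlapped with cytokines but not without. Without cytokines the dKO level was 1.67-fold the WT level (log2 0.74, SE 0.48), a difference that shrank to log2 0.28 without the second dKO libraries. Alternative fits other than those with 1 library left out ran from log2 0.28 to 1.08. With cytokines the difference was log2 0.04 (SE 0.53), and it was -0.99 without the second dKO libraries. The same alternative fits ran from -0.99 to 0.63 there. Krt8 lies 23.7 kb from Krt18 on the same chromosome and on the other strand (ENSMUSG00000049382, chr15:101996698-102004482), and its single count stood beside 25 to 655 Krt18 counts in each library.

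Cytokines lowered Krt18 in both genotypes. In dKO cells Krt18 fell 9.2-fold (log2 -3.2, SE 0.53, 95% interval -4.49 to -1.92, adjusted p = 0.028, quasi-likelihood test of edgeR, Benjamini-Hochberg adjusted over all 15698 genes tested). In WT cells it fell 5.69-fold (log2 -2.51, SE 0.52, 95% interval -3.77 to -1.25, adjusted p = 0.0248, same test). Of all genes tested, 5.55% were called in dKO cells in either direction, 17.4% in WT cells, and 1.59% were lower in both genotypes. The responses of dKO and WT cells were not shown to differ (interaction log2 -0.69, 95% interval -2.41 to 1.03, adjusted p = 0.79). In dKO cells DESeq2 gave an adjusted p of 1.91e-08, and without both second dKO libraries edgeR gave log2 -3.79 with adjusted p = 0.00391. The dKO call was lost in 7 of the 8 fits that each left out 1 library, with log2 -3.54 and adjusted p = 0.0683 without the first and -2.76 and 0.0617 without the second dKO library, -2.61 and 0.0521 without the first dKO library with cytokines, and adjusted p from 0.0685 to 0.0731 without any of the 4 WT libraries; without the second dKO library with cytokines it was -4.24 and 0.0108. The WT call was lost without any of the 4 WT libraries (log2 -2.63 to -2.38, adjusted p from 0.0999 to 0.14).

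Krt19 (ENSMUSG00000020911, chr11:100140810-100148665, - strand), the type I keratin of bile duct cells, was low throughout. It measured 1.68 and 6.01 CPM in dKO cells with cytokines, 2.37 and 4.32 CPM in dKO cells without, 0.529 and 1.1 CPM in WT cells with cytokines, and 0.185 and 0.843 CPM in WT cells without. Every dKO library was higher than every WT library of the same treatment, and in each group the second library was the higher one. The dKO level was 4.67-fold the WT level with cytokines (log2 2.22, SE 0.87) and 6.4-fold without (log2 2.68, SE 0.89). These became log2 1.04 with cytokines and 2.16 without when the second dKO libraries were left out. Alternative fits other than those with 1 library left out ran from 1.04 to 2.86 with cytokines and 2.16 to 3.05 without. Krt19 did not pass the test for a cytokine response in dKO cells (log2 0.2, 95% interval -1.73 to 2.13, adjusted p = 0.917) or in WT cells (log2 0.65, 95% interval -1.56 to 2.87, adjusted p = 0.672).

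Sox9 (ENSMUSG00000000567, chr11:112782224-112787760, + strand) showed the most even dKO libraries of the 4 measurable genes. It measured 15.9 and 12.4 CPM in dKO cells with cytokines, 7.73 and 11.2 CPM in dKO cells without, 0.97 and 1.06 CPM in WT cells with cytokines, and 0.332 and 0.303 CPM in WT cells without. The lowest dKO library was several times the highest WT library. The dKO level was 13.8-fold the WT level with cytokines (log2 3.79, SE 0.28) and 29.4-fold without (log2 4.88, SE 0.31). Without the second dKO libraries these were log2 3.96 with cytokines and 4.57 without.

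Sox9 rose with cytokines in WT cells, 3.17-fold (log2 1.66, SE 0.31, 95% interval 0.91 to 2.42, adjusted p = 0.0178, edgeR), and of all genes tested 9.72% were called higher in that comparison. In dKO cells the ratio was 1.49-fold (log2 0.57, SE 0.24, 95% interval 0 to 1.15). It did not pass (adjusted p = 0.215, edgeR), although both dKO libraries with cytokines were above both without. Leaving out the second dKO libraries gave log2 1.04. Alternative fits other than those with 1 library left out ran from log2 0.13 to 1.04. The difference between the genotypes was log2 -1.09 (95% interval -2.03 to -0.15, unadjusted p = 0.0297, adjusted p = 0.406) and did not pass. The WT call was lost without any of the 4 WT libraries (log2 1.6 to 1.72, adjusted p from 0.0785 to 0.109).

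Genes that work with SOX9 or are its targets in cartilage were mostly not measurable: 5 of 15 listed were tested. In dKO against WT cells without cytokines 3 of the 5 rose and 1 fell, where 13.4% of all genes tested were called higher and 9.66% lower. Cnmd, which encodes the cartilage protein chondromodulin, measured 47.2 and 23.6 CPM in dKO cells against 0.923 and 0.438 CPM in WT cells (log2 5.7, SE 0.62, adjusted p = 0.00425, edgeR). Runx2, a transcription factor of bone and cartilage, measured 16.5 and 18.4 CPM in dKO cells against 0.591 and 1.21 CPM in WT cells (log2 4.26, SE 0.46, adjusted p = 0.00373). Both calls held in 8 of 8 fits that each left out 1 library, in which Cnmd was log2 5.11 without the first dKO library and 6.31 without the first WT library, and Runx2 was 4.87 without the second WT library. Col11a1, a cartilage collagen chain, ran the other way, at 1.16 and 0.582 CPM in dKO cells against 5.06 and 4.38 CPM in WT cells (log2 -2.43, SE 0.41, adjusted p = 0.0116); this call was lost without the first WT library (adjusted p = 0.0738) or the second (0.0603), and was log2 -3.02 without the first dKO library. Sox5, a partner of SOX9 in cartilage, did not pass there (log2 1.1, adjusted p = 0.0616; it passed without either dKO library with cytokines or the second dKO library, lowest adjusted p 0.037), and fell with cytokines in WT cells at 4.19 and 3.02 CPM against 13.4 and 10.7 CPM without (log2 -1.74, adjusted p = 0.0236, lost without any of the 4 WT libraries, highest adjusted p 0.127). Without the second dKO libraries 4 of the 5 rose and 1 fell. With cytokines 0 of the 5 were called in dKO cells, and 3 of the 5 were lower in WT cells, among them Cnmd, which was down to 0 and 1 counts. That Cnmd call held in 4 of 8 fits that each left out 1 library, as did the Col11a1 call in WT cells. With no filter on low counts the Cnmd call was lost (adjusted p = 0.105, edgeR). The cartilage genes Col2a1, Acan and Matn3 did not pass the filter, and Matn3 had 0 counts in every library.

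Spp1 (ENSMUSG00000029304, chr5:104435118-104441050, + strand) had the widest range of the 7 genes. It measured 133 and 244 CPM in dKO cells with cytokines, 25.6 and 73 CPM in dKO cells without, 0.97 and 0.785 CPM in WT cells with cytokines, and 1.48 and 0.438 CPM in WT cells without. All dKO libraries were far above all WT libraries, and the second dKO library was the higher one in both treatments. The dKO level was 214-fold the WT level with cytokines (log2 7.74, SE 0.86) and 51.9-fold without (log2 5.7, SE 0.8). Between libraries of the same number the ratio was 137 and 311 with cytokines and 17.3 and 167 without, a wide range of sizes in 1 direction. Without the second dKO libraries the difference was log2 7.25 with cytokines and 4.74 without. Alternative fits other than those with 1 library left out ran from 7.25 to 8.11 with cytokines and 4.74 to 6.28 without. Of the Spp1 exon bases, 18.8% overlap Gm42793 on the same strand, which had at most 1 count in any library.

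In dKO cells both Spp1 libraries with cytokines were above both without, 3.82-fold on average (log2 1.93, SE 0.63, 95% interval 0.39 to 3.48), but the change did not pass the test over all genes (unadjusted p = 0.0223, adjusted p = 0.141, edgeR). DESeq2 called it higher (log2 1.92, adjusted p = 0.00903). Without the second dKO libraries edgeR gave log2 2.38 (adjusted p = 0.101). In WT cells the libraries overlapped (log2 -0.11, 95% interval -2.31 to 2.08, adjusted p = 0.951). The difference between the genotypes was log2 2.04 (95% interval -0.62 to 4.71, adjusted p = 0.584) and did not pass.

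Among all genes tested, 13.4% were called higher and 9.66% lower in dKO against WT cells without cytokines. Of 13 osteopontin receptor genes and relatives of Spp1, 9 were tested. In dKO against WT cells without cytokines 2 rose and 1 fell, and without the second dKO libraries 3 rose and 2 fell. Itgb5, which pairs with αV integrin, measured 42.1 and 28.6 CPM in dKO cells against 2.62 and 4.01 CPM in WT cells (log2 3.41, SE 0.32, adjusted p = 0.00268, edgeR), and Itgav, the αV chain itself, measured 166 and 129 CPM in dKO cells against 62.3 and 60.1 CPM in WT cells (log2 1.27, SE 0.15, adjusted p = 0.00487). Both calls held in 8 of 8 fits with 1 library left out. Itga9, another osteopontin receptor chain, was lower in dKO cells (log2 -0.71, adjusted p = 0.0283, highest adjusted p 0.125 with 1 library left out, the call being lost without the first dKO library, either WT library or either WT library with cytokines). With cytokines 3 of the 9 rose in dKO cells and 3 of the 9 in WT cells, and 0 fell in either; without the second dKO libraries 4 rose and 1 fell in each genotype. The 3 were Itgav, Itgb3 and Cd44, beside 3.5% of all genes tested called higher in dKO cells and 9.72% in WT cells. Cd44, the hyaluronan and osteopontin receptor, reached 1070 and 479 CPM in dKO cells with cytokines against 89.7 and 57.2 CPM without (log2 3.4, adjusted p = 0.0207), and 693 and 516 CPM in WT cells with cytokines against 84.2 and 59.4 CPM without (log2 3.07, adjusted p = 0.0111). Itgb3, the β3 chain, reached 413 and 643 CPM in dKO cells with cytokines against 143 and 199 CPM without (log2 1.63, adjusted p = 0.0209), and 1170 and 1130 CPM in WT cells with cytokines against 173 and 178 CPM without (log2 2.71, adjusted p = 0.00278). The WT calls of Itgav and Itgb3 held in 8 of 8 fits with 1 library left out; the WT call of Cd44 was lost without the first WT library with cytokines or either WT library without them (highest adjusted p 0.0846), and in dKO cells all 3 calls were lost without either WT library, those of Itgav and Itgb3 also without either WT library with cytokines, those of Cd44 and Itgb3 without the first dKO library, that of Cd44 without the second dKO library and that of Itgav without the first dKO library with cytokines. The highest of these adjusted p were 0.0758 for Itgav, 0.0857 for Cd44 and 0.0901 for Itgb3, and the Cd44 change in dKO cells was log2 2.7 without the first dKO library with cytokines. The bone relatives Ibsp, Dmp1 and Mepe had 0 counts in every library.

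**Figure D2:**
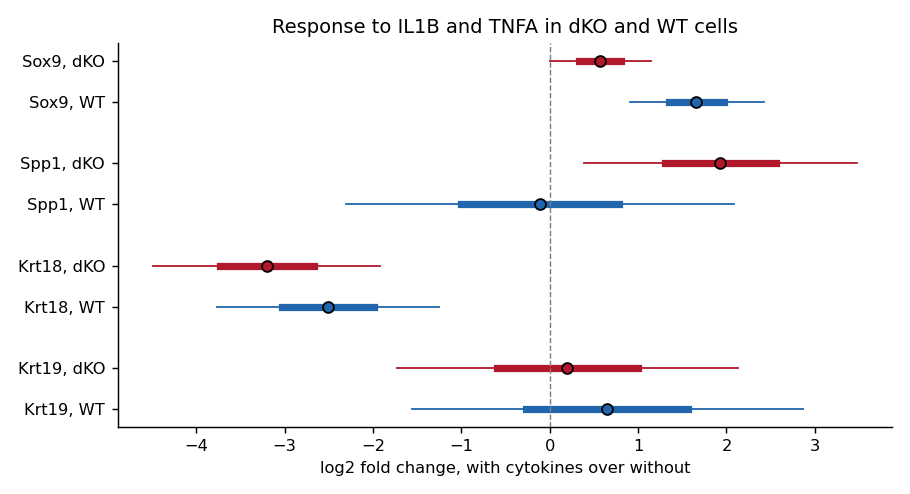
Cytokine response of the 4 tested genes as log2 fold change, with over without cytokines (x axis), in dKO cells (red) and WT cells (blue); thick bars are the standard error and thin bars the 95% interval of the edgeR fit. Krt18 lies left of 0 in both genotypes, Sox9 lies right of 0 in WT cells, and the Krt19 intervals span 0.

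Over the 7 genes, 4 were tested for the cytokine response and 3 could not be. In dKO cells 1 of the 4 passed and was lower, where 2.06% of all genes tested were called lower and 3.5% higher. In WT cells 1 rose and 1 fell, where 9.72% of all genes were called higher and 7.69% lower. The median log2 change of the 4 was 0.39 in dKO cells and 0.27 in WT cells, beside -0.01 over all genes tested in each genotype. For the difference between the responses 0 of the 4 passed and 0 of all 15698 genes by edgeR, although 1683 genes had an unadjusted p under 0.05, which is 10.7%; edgeR with no filter on low counts called 75 genes and DESeq2 called 391, in both cases none of the 4. In the comparison of genotypes that the choice of genes rests on, 4 of the 7 had both dKO libraries above both WT libraries without cytokines and 3 of the 7 with cytokines. These were all among the 4 tested genes, and the shares over all genes tested were 35.9% and 37.2%. Krt18 was the gene that differed between these counts.

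The fall of Krt18 was set beside the other epithelial junction and surface genes, of which 25 of 30 were tested. With cytokines 0 rose and 2 fell in dKO cells, and 1 rose and 4 fell in WT cells. Of all genes tested, 3.5% were called higher and 2.06% lower in dKO cells, and 9.72% and 7.69% in WT cells. The median log2 change of the list was -0.52 in dKO cells and -0.5 in WT cells, against -0.01 over all genes in each. Without the second dKO libraries 3 of 24 fell in dKO cells and 6 of 24 in WT cells. Ppl encodes periplakin, a desmosome and keratin linker. It measured 9.49 and 8.44 CPM in dKO cells with cytokines against 49.7 and 25.2 CPM without (log2 -2.06, SE 0.37, adjusted p = 0.0337), and 2.65 and 4.24 CPM in WT cells with cytokines against 10 and 12.9 CPM without (log2 -1.73, SE 0.38, adjusted p = 0.0286). Its relative envoplakin, Evpl, fell in WT cells (log2 -2, SE 0.36, adjusted p = 0.0154), and in dKO cells, where it measured 5.31 and 4.64 CPM with cytokines against 5.05 and 7.07 CPM without, it did not pass (log2 -0.28, adjusted p = 0.671); the difference between the genotypes did not pass either (adjusted p = 0.299). Cd24a, a surface glycoprotein gene, fell in dKO cells (log2 -1.37, SE 0.28, adjusted p = 0.0478) and in WT cells (log2 -1.19, SE 0.28, adjusted p = 0.0346).

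These calls depended on single libraries. In dKO cells the Ppl call held in 1 of 8 fits that each left out 1 library, the one without the second dKO library, and the Cd24a call held in 0 of 8 (highest adjusted p 0.14 for Ppl and 0.167 for Cd24a). In WT cells the Ppl call was lost without any of the 4 WT libraries (highest adjusted p 0.151), and the Evpl and Cd24a calls without the first WT library with cytokines or either WT library without them (highest adjusted p 0.093 for Evpl and 0.148 for Cd24a).

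The gene that rose with cytokines in WT cells was Spint2, an inhibitor of epithelial serine proteases, named here after its values were seen. It measured 537 and 473 CPM in WT cells with cytokines against 254 and 291 CPM without (log2 0.89, adjusted p = 0.0126, edgeR; lost without the first WT library with cytokines or either WT library without them, highest adjusted p 0.0981). Among 11 tested of 23 epithelial transcription and splicing factors, 0 rose and 1 fell in dKO cells, and 1 rose and 2 fell in WT cells; without the second dKO libraries 0 were called in dKO cells, and 0 rose and 2 fell in WT cells. The one that fell in both was Esrp2, an epithelial splicing factor. It measured 0.681 and 0.751 CPM in dKO cells with cytokines against 3.53 and 4.12 CPM without (log2 -2.41, SE 0.43, adjusted p = 0.0316), and 0.353 and 0.353 CPM in WT cells with cytokines against 1.88 and 4.11 CPM without (log2 -3.07, SE 0.46, adjusted p = 0.00909). Without cytokines the Esrp2 levels of dKO and WT libraries overlapped. With 1 library left out, the WT call was lost without either WT library with cytokines (highest adjusted p 0.0691), and the dKO call without any of the 4 dKO libraries or either WT library with cytokines (highest adjusted p 0.14).

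**Figure D3:**
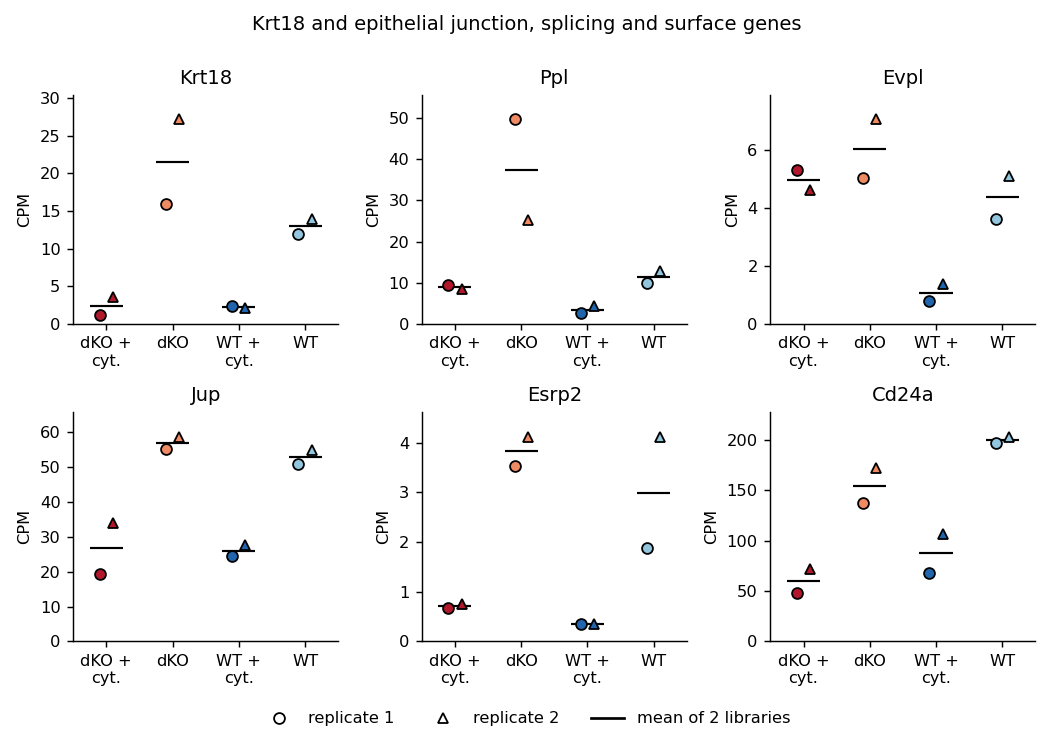
CPM (y axis, from 0) of Krt18, the junction genes Ppl, Evpl and Jup, the splicing factor gene Esrp2 and the surface gene Cd24a in the 4 groups (x axis); circles and triangles are replicates 1 and 2, and the bar is their mean. Krt18, Ppl, Jup, Esrp2 and Cd24a are lower with cytokines than without in both genotypes, and Evpl is so in WT cells.

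In dKO against WT cells without cytokines 3 of the 25 junction and surface genes rose and 2 fell, shares near the 13.4% and 9.66% of all genes tested, and without the second dKO libraries 3 of 24 rose and 8 fell. Spint2 was among the 2 that fell, at 142 and 151 CPM in dKO cells against 254 and 291 CPM in WT cells (log2 -0.9, adjusted p = 0.0111, edgeR). Without the second WT library its difference was log2 -0.8. The 3 that rose were cadherin genes Cdh3 and Cdh1 and the linker gene Ppl. Cdh3, P-cadherin, measured 17.7 and 5.24 CPM in dKO cells against 0.369 and 0.573 CPM in WT cells (log2 4.58, SE 0.74, adjusted p = 0.0107). Cdh1, E-cadherin, the adhesion protein of most epithelia, measured 3.31 and 2.66 CPM in dKO cells against 0.739 and 0.405 CPM in WT cells (log2 2.38, SE 0.46, adjusted p = 0.0168). The median log2 difference of the list was -0.06, beside 0.02 over all genes tested. With 1 library left out, both calls were lost without either WT library, and that of Cdh1 also without the first dKO library (highest adjusted p 0.086 for Cdh3 and 0.101 for Cdh1), and the Cdh3 difference was log2 3.45 without the first dKO library and 5.21 without the second. The Ppl difference (log2 1.71, adjusted p = 0.0228) was lost without the first dKO library or either WT library (highest adjusted p 0.131).

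Among the transcription factors 1 rose in dKO against WT cells without cytokines and 1 fell, and without the second dKO libraries 1 rose and 0 fell. The shares of all genes tested in the fit of all 8 libraries were 13.4% higher and 9.66% lower. Foxa2, a forkhead factor of liver and gut epithelium, measured 1.61 and 4.03 CPM in dKO cells against 0.148 and 0.438 CPM in WT cells (log2 3.23, SE 0.72, adjusted p = 0.0243). That call was lost without the second dKO library (log2 2.42, adjusted p = 0.0666), the first WT library (2.67, 0.127) or the second WT library (4.21, 0.0755). Gata4, a factor of liver sinusoidal endothelium as well as epithelium, measured 157 and 126 CPM in dKO cells against 309 and 241 CPM in WT cells (log2 -0.96, SE 0.27), with an adjusted p of 0.04996, just under the threshold, and the call held in 2 of 8 fits with 1 library left out, those without either dKO library with cytokines (highest adjusted p 0.205). The hepatocyte and bile duct factor genes Hnf4a and Onecut1 had 0 counts in every library.

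Few other keratins were measurable. Of the 49 listed, 26 had 0 counts in all 8 libraries and 8 reached 1 CPM in a group and were tested. Among all genes tested, 13.4% were called higher and 9.66% lower in dKO against WT cells without cytokines. In dKO against WT cells without cytokines 0 of the 8 rose and 1 fell, or 2 without the second dKO libraries. With cytokines 0 passed in dKO cells and 0 in WT cells by edgeR, and these counts moved with the fit: DESeq2 called Krt80 lower in dKO cells and Krt222 higher in WT cells, and without the second dKO libraries edgeR called 0 in dKO cells, and Krt222 higher and Krt80 lower in WT cells. Krt17, a keratin of stressed and basal epithelium, measured 0.223 and 0.208 CPM in dKO cells against 0.997 and 1.01 CPM in WT cells (log2 -2.19, SE 0.4, adjusted p = 0.0142, edgeR); the call was lost without the first dKO library or either WT library (highest adjusted p 0.0757). Krt80, a type II keratin, was the most abundant of them in WT cells without cytokines. It measured 0.318 and 2.08 CPM in dKO cells with cytokines, 3.53 and 12.8 CPM in dKO cells without, 2.47 and 4.67 CPM in WT cells with cytokines and 10.4 and 17.1 CPM in WT cells without. Like Krt18 it was lower in every library with cytokines than in the libraries of its genotype without, but it did not pass in dKO cells (log2 -2.77, adjusted p = 0.158, DESeq2 0.0102) or in WT cells (log2 -1.94, adjusted p = 0.192, 0.0259 with the compared libraries alone and 0.024 without the second dKO libraries). Summed over 27 type I genes, keratins came to 23.9 and 37.1 CPM in dKO cells against 18.5 and 21.3 CPM in WT cells, both without cytokines. Summed over 25 type II genes they came to 8.31 and 17.2 CPM in dKO cells against 16.3 and 22.2 CPM in WT cells. The type I sum was above the type II sum in both dKO libraries, while in WT cells it was so in the first library only.

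**Figure D4:**
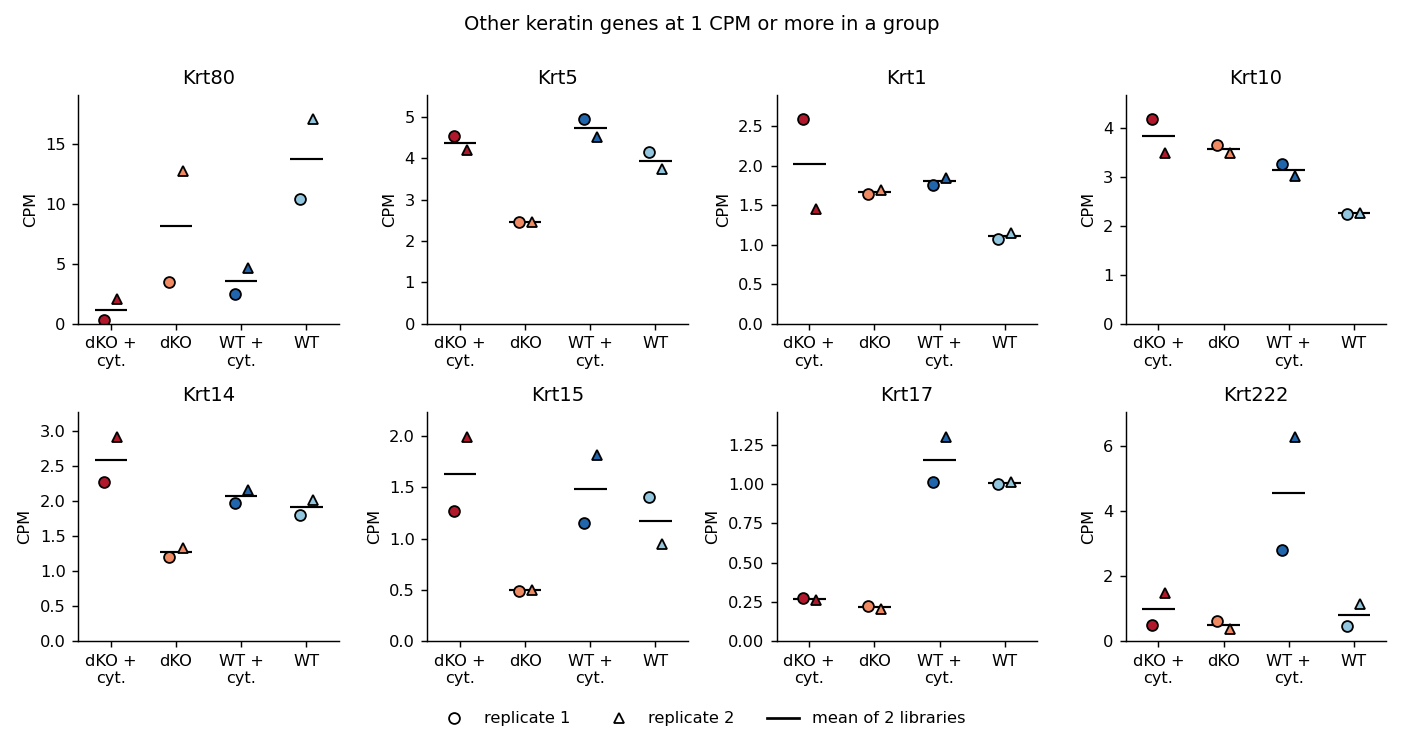
CPM (y axis, from 0, a scale for each panel) of the 8 other keratin genes that reached 1 CPM in a group, in the 4 groups (x axis); circles and triangles are replicates 1 and 2, and the bar is their mean. Krt17 is low in all dKO libraries, and Krt80 is high in WT cells without cytokines and low with them.

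Of 14 other intermediate filament and cytolinker genes, 10 were tested, with 1 higher and 2 lower in dKO against WT cells without cytokines, and 2 higher and 4 lower without the second dKO libraries. With all 8 libraries 13.4% of all genes tested were called higher and 9.66% lower in that comparison. Vim, vimentin, the main intermediate filament gene of endothelial and mesenchymal cells, far exceeded every keratin. It measured 1600 and 1510 CPM in dKO cells against 1320 and 1540 CPM in WT cells, where the libraries overlapped. Gfap, an intermediate filament of glia and stellate cells, was the one that rose (2.41 and 1.5 CPM in dKO cells against 0.628 and 0.539 CPM in WT cells, log2 1.74, adjusted p = 0.038), a call lost without the first dKO library (log2 1.34) or any of the 4 WT libraries (highest adjusted p 0.192). With cytokines 0 rose and 1 fell in dKO cells (1 and 1 without the second dKO libraries), and 2 rose and 1 fell in WT cells. Plec, plectin, which links keratin and vimentin filaments to the membrane, was among those that rose in WT cells, at 341 and 280 CPM with cytokines against 146 and 145 CPM without (log2 1.1, adjusted p = 0.0135); this was lost without the first WT library with cytokines or either WT library without them (highest adjusted p 0.0951).

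The 7 genes are also markers of other cells that a liver culture can hold, so their lists were read in the same libraries. In a bulk sample fewer cells of a type and less RNA per cell cannot be told apart. Of 15 cholangiocyte markers 9 were tested, 2 were higher in dKO than in WT cells without cytokines (Cdh1 and Bicc1, which encodes an RNA-binding protein of ducts) and 0 lower, and without the second dKO libraries 2 were higher and 3 lower; their summed level was 346 to 349 CPM in dKO cells against 190 to 195 CPM in WT cells, and without Bicc1 it was 101 to 135 CPM in dKO cells against 144 to 153 CPM in WT cells. In dKO against WT cells without cytokines 13.4% of all genes tested were called higher and 9.66% lower. On the cholangiocyte list Sctr, Slc10a2, Pkhd1 and Onecut1 had 0 counts in every library, but Cftr was present in all. Cftr measured 20.6 and 39.6 CPM in dKO cells with cytokines and 5.01 and 14.2 CPM in dKO cells without. In WT cells it measured 30.5 and 31.4 CPM with cytokines and 22.3 and 21.8 CPM without. Of 13 hepatocyte markers 1 was tested, 0 passed, none reached 1 CPM in any group, and 7 had 0 counts in every library. Of 11 leukocyte and macrophage markers 4 were tested and 0 passed in dKO against WT cells or in either cytokine response by edgeR; without the second dKO libraries 1 of 3, the macrophage gene Cd68, was higher in dKO cells with cytokines (log2 1.53, adjusted p = 0.0285). Their sum, without cytokines, was 4.32 to 6.08 CPM in dKO cells against 5.8 to 6.13 CPM in WT cells, and Ptprc, which encodes CD45, had 1 count in all.

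Of 11 mesothelial markers, cells of the liver surface that contain K8, K18 and K19, 6 were tested, with 0 higher and 2 lower in dKO against WT cells without cytokines; without the second dKO libraries 7 were tested, with 3 higher and 1 lower. With all 8 libraries 13.4% of all genes tested were called higher and 9.66% lower in that comparison. The sum of the mesothelial markers was 74 to 76.2 CPM in dKO cells with cytokines and 186 to 285 CPM in dKO cells without. In WT cells it was 163 to 197 CPM with cytokines and 528 to 573 CPM without. Gpm6a made up most of it; without Gpm6a the sum was 7.2 to 28 CPM in dKO cells with cytokines, 30.1 to 152 CPM in dKO cells without, 1.85 to 2.04 CPM in WT cells with cytokines and 10.6 to 11.2 CPM in WT cells without. Most of that remainder was Pkhd1l1, at 129 and 24.3 CPM in dKO cells against 7.16 and 6.67 CPM in WT cells, which did not pass (adjusted p = 0.0545). Wt1 measured 8 and 4.07 CPM in dKO cells against 0.111 and 0.876 CPM in WT cells, both without cytokines. Lrrn4 measured 11.9 and 0.374 CPM there against 0 and 0.236 CPM. Neither passed. Other markers were higher in WT cells without cytokines. Upk1b averaged 0.109 CPM in dKO cells against 1.98 CPM in WT cells (adjusted p = 0.0401, edgeR, a call that held in 2 of 8 fits with 1 library left out). Upk3b and Bnc1 had 0 counts in dKO cells, and in WT cells 0 each in the first library and 10 each in the second. The list thus had no common direction between dKO and WT cells, while its sums with and without Gpm6a were lower with cytokines in both genotypes, as Krt18 was. Muc16 had 0 counts in every library. The part of mesothelial cells in the Krt18 result was not tested.

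Of 16 stellate cell, pericyte and fibroblast markers 13 were tested, with 7 higher and 0 lower in dKO against WT cells without cytokines, and 8 higher and 0 lower without the second dKO libraries. Over all genes tested 13.4% were called higher and 9.66% lower in that comparison. The sum of the whole list without cytokines was 13400 to 17800 CPM in dKO cells against 9220 to 9350 CPM in WT cells. With cytokines it was 15200 to 19200 CPM against 9980 to 10900 CPM. Most of it was Dcn, which without cytokines measured 13400 and 11700 CPM in dKO cells and 9020 and 9170 CPM in WT cells. Without Dcn the sum was 1920 to 4400 CPM in dKO cells with cytokines and 1700 to 4400 CPM in dKO cells without. In WT cells the sum without Dcn was 213 to 281 CPM with cytokines and 176 to 197 CPM without. Pdgfra, the receptor gene that marks such cells, measured 933 and 615 CPM in dKO cells against 2.07 and 3.67 CPM in WT cells (log2 8.07, SE 0.55, adjusted p = 0.00131). The sum without Dcn was high in the same libraries as Sox9 and Spp1. Within dKO cells the first library had the higher sum in both treatments. Sox9 was higher in the first dKO library with cytokines and in the second without, and Spp1 was higher in the second in both treatments. Of 13 endothelial markers all were tested, 0 were higher and 6 lower in dKO against WT cells without cytokines, and 11 were lower without the second dKO libraries. Their sum was 2300 to 4280 CPM in dKO cells against 11000 to 11200 CPM in WT cells, and all 13 had counts in every library. The part of either list in the Sox9, Spp1 and Krt19 levels was not tested.

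**Figure D5:**
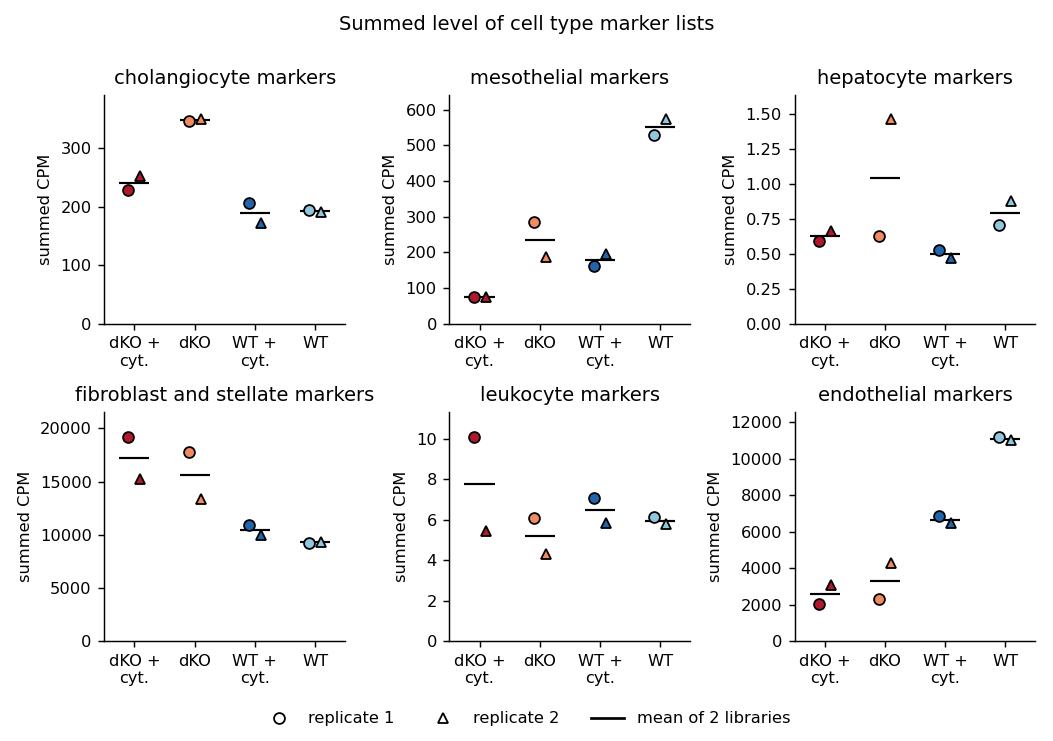
Summed CPM (y axis, from 0, a scale for each panel) of 6 lists of cell type markers in the 4 groups (x axis); circles and triangles are replicates 1 and 2, and the bar is their mean. Fibroblast and stellate markers are highest and endothelial markers lowest in dKO libraries, and hepatocyte and leukocyte sums stay at or below 10.1 CPM in every library.

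The 4 measurable genes fell into different patterns over the 8 libraries. On log2 CPM, Sox9 and Spp1 had a Pearson r of 0.954, Krt19 and Sox9 0.849 and Krt19 and Spp1 0.804, whereas Krt18 had r from -0.132 to 0.0707 with the other three. These values describe 8 libraries that share 4 groups and carry no test. By the same measure the genes most like Krt18 were Jup (0.982), which encodes the junction protein plakoglobin, and Frg2f1 (0.98). Jup measured 19.4 and 34.1 CPM in dKO cells with cytokines against 55.3 and 58.7 CPM without, and 24.4 and 27.6 CPM in WT cells with cytokines against 50.9 and 55 CPM without. The genes most like Sox9 were Rab15 (0.996), a small GTPase, and Sdc1 (0.996), the cell surface proteoglycan syndecan-1. Sdc1 measured 156 and 149 CPM in dKO cells with cytokines, 64.4 and 79.1 CPM in dKO cells without, 6.48 and 8.99 CPM in WT cells with cytokines and 2.66 and 2.43 CPM in WT cells without. As for Sox9, every dKO library was above every WT library, and the libraries with cytokines were above those without in each genotype. The genes most like Spp1 were Ccnl2 (0.987) and Emp2 (0.985), and those most like Krt19 were Spry1 (0.968), an inhibitor of receptor kinase signals, and Ankrd13d (0.967).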

How the data were processed

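Poly(A) RNA of sorted mouse liver endothelial cells was sequenced in 8 libraries. The authors deposited raw counts per Ensembl gene, whole numbers that show no normalization. FastQC 0.11.5, STAR 2.7.6a and the build GRCm38 appear in the submitters' processing notes; how reads were counted, and on which strand, is not given in the sources used here. By the labels' protocols either an unstranded or a stranded kit was used, and not which library had which, so genes overlapping on opposite strands could share counts.

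Groups and replicate numbers came from the labels. In R 4.3.3, edgeR 4.0.16 was run with TMM scaling, its filter on low counts by group (minimum count 10; 15698 of 52636 genes kept), 4 group coefficients over all 8 libraries and a robust quasi-likelihood fit with 4 residual degrees of freedom and a common biological coefficient of variation of 24.3%. All tests were two-sided and Benjamini-Hochberg adjusted over all genes tested, with a threshold of 0.05. Counts called in any list are to be read beside the shares of all genes tested. In dKO against WT cells without cytokines 13.4% were called higher and 9.66% lower. With cytokines against without, 3.5% were called higher and 2.06% lower in dKO cells, and 9.72% and 7.69% in WT cells. These shares are those of the fit of all 8 libraries and do not apply to counts with libraries left out. Intervals are 95%. CPM use TMM-scaled totals, and RPKM divide them by exon length. Values given with ± are the SD of 2 libraries. Library totals of 23009062 to 26944030 set the precision: a floor of 3 counts is 0.101 to 0.136 CPM in a library.

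The 7 genes and all lists were chosen with earlier results of these data known. Within each list, up to 3 genes with the largest change among those past the threshold, at 1 CPM or more in a group, were named for each comparison; of the other keratins, those at 1 CPM or more; and for each tested gene, the 2 genes with the highest correlation. From this set, those of most bearing on the 7 genes are given. Gene coordinates are those of the GRCm38 annotation and promoters those of RefSeq, both counted from 1. The alternatives were DESeq2 1.42.0, its size factors in edgeR, no filter, the compared libraries alone, replicate blocks and libraries left out; leaving out both first dKO libraries was chosen after seeing the data. The fits were tested on simulated data.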

Additional observations from a re-analysis of the deposited data

How the results depend on the processing

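The WT calls of the 4 tested genes, 2 by edgeR, numbered 0 to 2 when 1 library was left out, and the dKO calls, 1 by edgeR, numbered 0 to 1. The dKO count was 2 with DESeq2 and 2 with a replicate block within genotype, both adding Spp1 (under the block log2 2.04, adjusted p = 0.00226), and 0 with the compared libraries alone, where Krt18 had an adjusted p of 0.167 and 1 gene was called in all. The labels do not say that replicate numbers pair libraries; deviations of same-numbered libraries correlated at 0.69 in dKO cells, 0.43 in WT cells and 0.017 to 0.13 across genotypes, and WT libraries of a number share a sex. A block over all groups changed no call of the 4 genes, and neither did other size factors or no filter. Among other keratins Krt80 passed with a block in dKO cells (adjusted p = 0.0246) and WT cells (0.0258) and with the block within genotype (0.000197 and 0.000168), which also called Krt15 (0.0313), Krt14 (0.033) and Krt5 (0.0264) higher in dKO cells and Krt222 (0.00274, and 0.0226 with the plain block) higher in WT cells. The same block called Cd68 in dKO cells (0.0449) and 947 genes for the interaction. The interaction count of the 4 genes stayed at 0 under every alternative run. With 1 library left out, log2 changes of the low genes turned in sign: Krt19 ran from -0.04 to 2.12 in WT cells, -0.99 to 0.84 in dKO cells and -1.92 to 0.24 for their difference, and Spp1 from -0.75 to 0.99 in WT cells. Without both second dKO libraries Krt19 in dKO cells was -0.49. The dKO to WT difference of Krt19 without cytokines was 4.14 without the second WT library. Counts of genes whose dKO libraries all lay above the WT libraries were 4 to 5 without cytokines and 3 to 4 with them. The cause of these shifts was not tested. With 2 libraries a group and 4 residual degrees of freedom, the Krt18 and Sox9 calls were lost in the fits with 1 library fewer that the text names, and fewer than 10 counts a library leave Krt7, Krt8 and Epcam without a test.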
